A study of Mus musculus with 6 samples.

Results

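The genes that make, break down and read cyclic AMP (cAMP) were followed in damaged hepatocytes treated with chemical cocktails. They were chosen by symbol from the count table: adenylyl cyclases (Adcy), phosphodiesterases (Pde), regulatory and catalytic subunits of protein kinase A (Prkar, Prkac), numbered A-kinase anchoring proteins (Akap), Crem, Creb1, Crebbp, Crtc1, Crtc2, Crtc3, Rapgef3 and Rapgef4. The rule uses gene symbols and no measured value, but it was set with earlier results of these data known. It gave 59 of the 52323 genes in the table. RNA was sequenced from hepatocytes of AAV-TBG-Cre:Rosa-LSL-tdTomato mice whose livers had been injured with carbon tetrachloride (CCl4), here called dHeps. In these mice the hepatocyte promoter TBG drives the Cre that switches on tdTomato, so the colour records hepatocyte origin and not the present state of a cell. All groups were cultured for 16 days in a serum-free hepatocyte maintenance medium. The DMSO group received solvent alone. The 3C group received the protein kinase D inhibitor CID755673 at 50 µM, the ROCK inhibitor GSK429286A at 2 µM and the AMPK activator ETC-1002 at 5 µM. The 5C group received the same 3 compounds at the same doses with salidroside, a plant phenylpropanoid glycoside, at 5 µM and forskolin, a direct activator of adenylyl cyclase, at 2 µM. Each group had 2 libraries, and the labels do not say whether these came from separate animals, so the p-values measure the spread between libraries, which may be technical. Since 5C differs from 3C by 2 compounds, what forskolin and salidroside each contributed cannot be told apart.

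Transmembrane adenylyl cyclases turn ATP into cAMP when a receptor engages the stimulatory G protein Gs, and forskolin activates most of them without a receptor. cAMP frees the catalytic subunits of protein kinase A (PKA) from its regulatory subunits, opens the exchange factors EPAC1 and EPAC2 (genes Rapgef3 and Rapgef4), and is removed by phosphodiesterases. In the liver, glucagon acts through this route to raise gluconeogenesis, with CREB and its CRTC coactivators switching on genes such as Pck1.

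Library totals ran from 65916573 to 69245895 estimated counts, so depth was nearly even between groups, and the members together took 0.189 to 0.206% of the counts of a library. The 12 hepatocyte markers summed to 2938 and 3238 CPM (counts scaled by the library total) with DMSO, 12980 and 13647 with 3C, and 11806 and 17023 with 5C. Markers of cells other than hepatocytes also gave signal, which moved with the groups. Macrophage markers summed to 10032 and 10412 CPM with DMSO, 3506 and 3520 with 3C, and 2241 and 2292 with 5C, and 11 of the 14 markers were lower in each of the 3 comparisons. Stellate and fibroblast markers summed to 8071 to 9401 CPM with DMSO, 7201 to 7296 with 3C and 11785 to 12747 with 5C, and endothelial markers to 453 to 490, 193 to 232 and 264 to 380 CPM. Cholangiocyte markers summed to 2937 and 3428 CPM with DMSO, 3611 and 3802 with 3C, and 2744 and 2438 with 5C. Mesothelial markers summed to 1041 to 1252, 1378 to 1487 and 2408 to 2503 CPM. Of 7 lymphocyte markers, 6 were at or under the floor of 3 fragments in every library. In such bulk samples fewer cells of a type and less RNA per cell cannot be told apart. The study reported mesenchymal genes such as Col1a1 and Des raised in injured hepatocytes. The stellate and fibroblast markers therefore need not come from other cells, and the source of the marker signal was not tested. The part of these cell types in the results that follow was not tested unless a value is given.

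Of the 59 members, 51 had enough counts to be tested. Adcy10, Akap3, Akap4, Akap14, Pde6a, Pde6b, Pde6c and Pde11a did not, and Akap4 and Akap14 had no count in any library. Adjusted p-values are those of edgeR's quasi-likelihood test, with Benjamini-Hochberg adjustment over all 19135 genes tested, and a member is called at an adjusted p under 0.05. Between 5C and 3C, 10 members were called, where 12.7% of all genes tested were. Of these, 8 were higher in 5C (7.33% of all genes) and 2 were lower (5.33%), and 6 changed by more than 1 on the log2 scale (3.01%). Against DMSO, 28 members were called in 5C (background 28.7%), 13 of them higher (15.6%), 15 lower (13.1%) and 12 by more than 1 on the log2 scale (11.7%). In 3C against DMSO, 19 were called (24.5%), with 6 higher (12.7%), 13 lower (11.8%) and 9 by more than 1 (9.45%). The median log2 fold change of the 51 members was 0.10 between 5C and 3C, -0.03 between 5C and DMSO and -0.18 between 3C and DMSO, beside -0.01, 0.00 and 0.01 over all genes. In all, 31 members were called in at least 1 comparison, 6 in all 3 and 20 in none. The matching shares over all genes were not computed, so these counts only describe the members. The 3 comparisons share libraries, and both comparisons with DMSO rest on the same 2 DMSO libraries.

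**Figure D1:**
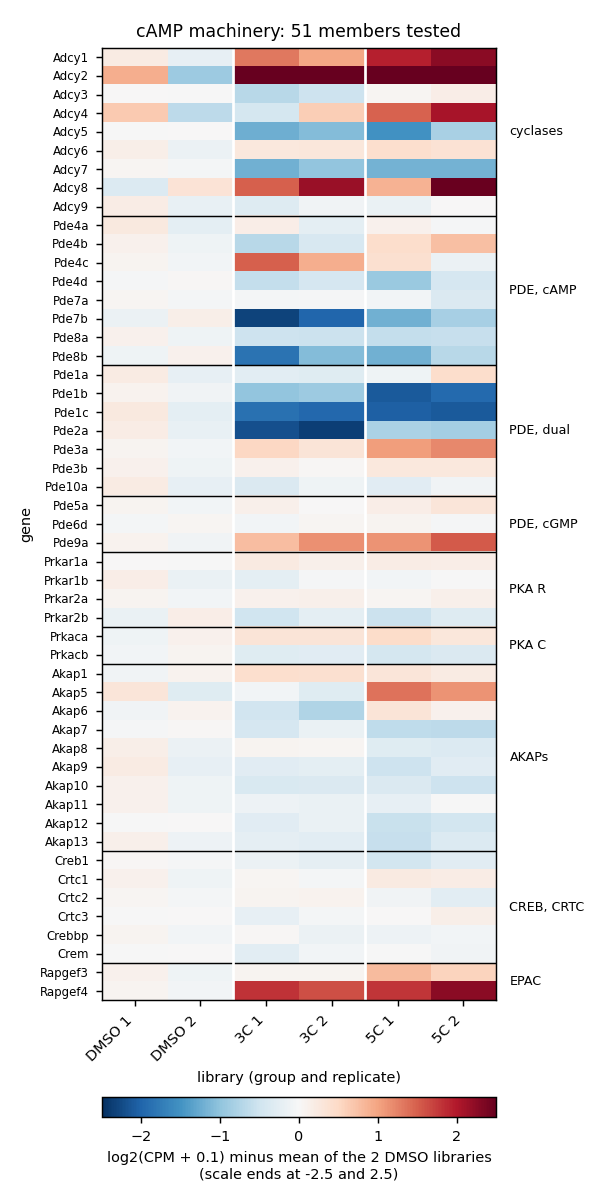
Each row is 1 of the 51 members tested and each column 1 library; the colour gives log2(CPM + 0.1) minus the mean of the 2 DMSO libraries, with red above and blue below. Large changes sit among cyclases, phosphodiesterases and EPAC genes and in Akap5, while the rows of PKA, CREB and CRTC genes stay pale in all 6 libraries.

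Of the 9 cyclases tested, Adcy1 and Adcy3 were higher in 5C than in 3C, and none was lower (22.2% called, beside 12.7% of all genes). Against DMSO, 4 were higher and 2 lower in 5C (66.7%, beside 28.7%). In 3C, 1 was higher and 3 lower (44.4%, beside 24.5%). By FPKM, which scales for gene length, Adcy6 was the most abundant cyclase, at 10.3 to 16.7 FPKM over the 6 libraries, and held 38.2% of the summed cyclase FPKM with DMSO, 53.1% with 3C and 44.9% with 5C (means of 2). Adcy3 and Adcy7 came next with DMSO, at 7.20 to 7.37 and 5.65 to 7.39 FPKM. The summed cyclase FPKM was 28.2 and 36.1 with DMSO, 29.6 and 29.7 with 3C, and 34.8 and 37.7 with 5C. The 5C values thus lay above those of 3C, while the DMSO libraries spanned both.

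Adcy1 (chr11:7013330-7128506 on GRCm39), a cyclase stimulated by calcium and calmodulin, stood at 13.5 and 10.2 CPM with DMSO, 29.5 and 22.8 with 3C, and 45.2 and 56.0 with 5C. The groups did not overlap, and 5C was the highest. Adcy1 differed by a log2 fold change of 1.01 ± 0.18 (SE, n = 2 per group; adjusted p = 0.00787) between 5C and 3C, 2.12 ± 0.18 (adjusted p = 5.96e-05) between 5C and DMSO, and 1.11 ± 0.18 (adjusted p = 0.00247) between 3C and DMSO. The call between 5C and 3C was lost without 3C replicate 2 (adjusted p = 0.0619) and without 5C replicate 2 (adjusted p = 0.0587). Its share of the summed cyclase FPKM went from a mean of 2.75% with DMSO to 6.43% with 3C and 10.3% with 5C.

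Adcy3 (chr12:4182969-4263527), the cyclase of olfactory neurons and primary cilia, had another order. It stood at 36.8 CPM in both DMSO libraries, at 22.7 and 25.8 with 3C, and at 38.1 and 41.2 with 5C. Only the 3C libraries were low. On the log2 scale Adcy3 changed by 0.76 ± 0.10 (adjusted p = 0.00198) between 5C and 3C and -0.63 ± 0.10 (adjusted p = 0.00169) between 3C and DMSO. Between 5C and DMSO the log2 fold change was 0.13, with a 95% interval of -0.10 to 0.35 (adjusted p = 0.404). Exons of Cenpo on the other strand overlap 19.0% of its exon bases, and the library kit does not mark strand, so reads of Adcy3 and Cenpo cannot be separated there.

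Adcy7, a cyclase found mainly in blood and immune cells, fell in both cocktails. It stood at 40.8 and 37.9 CPM with DMSO, 17.1 and 19.7 with 3C, and 17.3 and 17.2 with 5C. Against DMSO the log2 fold change was -1.17 ± 0.11 (adjusted p = 4.98e-05) in 5C and -1.13 ± 0.11 (adjusted p = 8.2e-05) in 3C, and between 5C and 3C it was -0.04, with an interval of -0.29 to 0.20. Of the 14 macrophage markers, 11 were also lower than with DMSO in each cocktail, and their part in the fall of Adcy7 was not tested. Between 5C and 3C, 11 were again lower in 5C, while the interval for Adcy7 included 0.

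In the main test, the remaining cyclases were called only against DMSO or not at all. Adcy6, which calcium inhibits, stood at 73.7 and 60.8 CPM with DMSO, 80.7 and 82.0 with 3C, and 89.8 and 85.9 with 5C, a log2 rise of 0.40 ± 0.09 from DMSO to 5C (adjusted p = 0.00778) that was lost by limma on FPKM with either pseudocount (adjusted p up to 0.101). Its close relative Adcy5 was lower in both cocktails, with 4.15 and 4.22 CPM in DMSO beside 1.74 and 1.94 in 3C and 1.40 and 2.34 in 5C. In 5C and 3C against DMSO these were log2 fold changes of -1.14 (adjusted p = 0.0237) and -1.22 (adjusted p = 0.0199). The 5C call of Adcy5 was lost without either DMSO library or 5C replicate 1 (adjusted p = 0.0667 to 0.127) and the 3C call without either DMSO or either 3C library (adjusted p = 0.0584 to 0.123). Adcy4 stood at 1.04 and 0.364 CPM with DMSO, 0.438 and 1.01 with 3C, and 1.93 and 2.95 with 5C. Between 5C and 3C its log2 fold change of 1.80 (interval 0.48 to 3.12) missed the threshold (adjusted p = 0.0832). By DESeq2, Adcy4 was called there. Its rise from DMSO to 5C, by 1.82 ± 0.58 on the log2 scale (adjusted p = 0.0456), was lost without DMSO replicate 2, 5C replicate 1 or 5C replicate 2 (adjusted p = 0.0805 to 0.224). Of 10 endothelial markers, 6 were higher and 2 lower in 5C than in DMSO, while their sum was lower, at 264 and 380 CPM beside 453 and 490. In 3C against DMSO, 4 were higher and 2 lower, and the log2 fold change of Adcy4 was 0.02. The part of these markers in the rise of Adcy4 was not tested.

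Adcy2 had 17 and 0 counts with DMSO and stood at 1.48 and 1.03 CPM with 3C and 2.66 and 3.55 CPM with 5C. Between 5C and 3C its log2 fold change was 1.36, with an interval of -0.60 to 3.32 (adjusted p = 0.388). Its log2 fold change of 4.62 between 5C and DMSO (interval 2.23 to 7.01, adjusted p = 0.0138) rests on those few DMSO counts, and the call was lost without 5C replicate 2 (adjusted p = 0.0595). Adcy8 had no count in 1 DMSO library and at most 0.607 CPM in any library, and was not called. Adcy9, which forskolin activates poorly, was at 17.7 to 25.1 CPM in all libraries and was called in no comparison. Adcy10, the soluble cyclase, had at most 0.121 CPM, under the floor.

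The phosphodiesterases that act on cAMP alone are those of the PDE4, PDE7 and PDE8 families. Of the 8 tested, 2 were higher and none lower in 5C than in 3C (25% called, beside 12.7% of all genes). Against DMSO, 1 was higher and 3 lower in 5C (50%, beside 28.7%). In 3C, 1 was higher and 4 lower (62.5%, beside 24.5%). Pde8a was the most abundant, at 7.66 to 13.0 FPKM.

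Pde4b (chr4:101944740-102465716), a phosphodiesterase that cAMP signalling is known to induce, moved in opposite directions in the cocktails. It stood at 13.6 and 11.7 CPM with DMSO, 7.79 and 9.56 with 3C, and 17.2 and 21.2 with 5C. The groups did not overlap, and DMSO lay between the cocktails. Between 5C and 3C the log2 fold change was 1.20 ± 0.17 (2.29-fold, adjusted p = 0.00245), a call that held with each library left out. Against DMSO it was 0.62 ± 0.16 in 5C (adjusted p = 0.0202) and -0.57 ± 0.17 in 3C (adjusted p = 0.0342). The 5C call was lost without DMSO replicate 2 (adjusted p = 0.0943) and without 5C replicate 2 (adjusted p = 0.152), and the 3C call without DMSO replicate 1 or either 3C library (adjusted p = 0.0504 to 0.223).

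Pde7b (chr10:20273567-20600886) fell in both cocktails, less so in 5C. It stood at 11.8 and 14.5 CPM with DMSO, 2.55 and 3.25 with 3C, and 5.60 and 7.31 with 5C. Against DMSO its log2 fold change was -2.21 ± 0.23 in 3C (adjusted p = 0.00013) and -1.01 ± 0.22 in 5C (adjusted p = 0.00767), and between 5C and 3C it was 1.20 ± 0.22 (adjusted p = 0.0083). Only the call of 3C against DMSO held with each library left out. The call between the cocktails was lost without 3C replicate 1 (adjusted p = 0.0792) or 5C replicate 2 (adjusted p = 0.065), and that of 5C against DMSO without DMSO replicate 2 (adjusted p = 0.0519) or 5C replicate 1 (adjusted p = 0.063).

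Pde8a, a high-affinity enzyme, was lower to a like extent in both cocktails, with 52.8 and 45.9 CPM in DMSO, 34.5 and 34.0 in 3C, and 32.5 and 32.8 in 5C. The log2 fold change against DMSO was -0.58 ± 0.09 in 5C (adjusted p = 0.00131) and -0.56 ± 0.09 in 3C (adjusted p = 0.00184), and between the cocktails it was -0.02, with an interval of -0.22 to 0.19. Pde8b was lower in 3C than in DMSO, with 0.846 and 1.51 CPM beside 3.07 and 3.57, and stood at 1.38 and 1.99 CPM in 5C. That call (log2 fold change -1.52, adjusted p = 0.0164) was lost without DMSO replicate 2 (adjusted p = 0.0673) and without 3C replicate 1 (adjusted p = 0.118).

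Pde4c and Pde4d belong to the same family as Pde4b but did not share its order. Pde4c stood at 1.59 and 1.44 CPM with DMSO, 4.45 and 2.92 with 3C, and 2.03 and 1.36 with 5C. It was higher in 3C than in DMSO by 1.25 on the log2 scale (adjusted p = 0.0241), a call lost without either DMSO library or 3C replicate 1 (adjusted p = 0.0723 to 0.205), and its log2 fold change of -1.07 between 5C and 3C missed the threshold (adjusted p = 0.0708). Of 8 cholangiocyte markers, 6 were also higher in 3C than in DMSO. In 5C against DMSO, where Pde4c was not called, 6 were higher and 1 lower. The part of these markers in the rise of Pde4c was not tested. Pde4d was at 9.96 and 10.3 CPM with DMSO, 6.69 and 7.55 with 3C, and 5.27 and 7.55 with 5C. Its log2 fold change of -0.64 between 5C and DMSO (adjusted p = 0.0465) lost its call without any 1 of DMSO replicate 1, DMSO replicate 2, 3C replicate 1, 3C replicate 2 and 5C replicate 1 (adjusted p = 0.0706 to 0.223). Pde4a and Pde7a were called in no comparison.

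The dual-specificity enzymes act on cAMP and cGMP. Of the 7 tested, Pde2a and Pde3a were higher and Pde1b was lower in 5C than in 3C (42.9% called, beside 12.7% of all genes). Pde2a (chr7:101070825-101162038), the enzyme that cGMP stimulates, stood at 24.2 and 18.6 CPM with DMSO, 4.51 and 4.05 with 3C, and 12.2 and 11.7 with 5C. The groups did not overlap, with 3C the lowest and DMSO the highest. The summed endothelial markers had the same order of groups. By count, 6 of the 10 were higher and 2 lower in 5C than in DMSO, and 4 were higher and 2 lower in 3C than in DMSO. Their part in the values of Pde2a and Pde7b was not tested. Pde2a differed by a log2 fold change of 1.53 ± 0.16 between 5C and 3C (2.89-fold, adjusted p = 0.00061), -0.82 ± 0.15 between 5C and DMSO (adjusted p = 0.00331), and -2.35 ± 0.16 between 3C and DMSO (5.10-fold lower, adjusted p = 1.31e-05). These 3 calls held with each library left out.

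A limit touches these Pde2a values. The read-through gene Gm45837, annotated on the same strand, shares 76.4% of the 50-base words of the longest Pde2a transcript, so the counting could split reads between them. Gm45837 stood at 15.8 and 10.9 CPM with DMSO, 8.76 and 12.9 with 3C, and 7.41 and 13.2 with 5C, with no group apart. With the counts of both genes summed, an alternative chosen after seeing the data, the log2 fold change was 0.61 between 5C and 3C (adjusted p = 0.0795), so that this call was lost. Against DMSO the summed counts gave -0.62 in 5C (adjusted p = 0.0399) and -1.23 in 3C (adjusted p = 0.00195).

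Pde3a (chr6:141194888-141453174), which cGMP inhibits, rose stepwise. It stood at 22.9 and 20.8 CPM with DMSO, 31.1 and 27.1 with 3C, and 45.2 and 50.4 with 5C. Its rises on the log2 scale were 0.77 ± 0.11 between 5C and 3C (adjusted p = 0.00265), 1.15 ± 0.11 between 5C and DMSO (adjusted p = 6.42e-05) and 0.38 ± 0.11 between 3C and DMSO (adjusted p = 0.0332). The first call was lost by limma on FPKM with either pseudocount (adjusted p up to 0.0691), and the last also by limma and without DMSO replicate 2 or either 3C library (adjusted p = 0.0555 to 0.282). Its relative Pde3b, known for insulin's antilipolytic action, was at 31.9 to 41.1 CPM and was called in no comparison.

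Pde1b (chr15:103411286-103439706), a calcium and calmodulin-dependent enzyme also expressed in macrophages, fell stepwise. It stood at 10.7 and 9.38 CPM with DMSO, 5.01 and 5.29 with 3C, and 2.26 and 2.53 with 5C. The log2 fold change was -1.05 ± 0.19 between 5C and 3C (adjusted p = 0.00767), -2.05 ± 0.20 between 5C and DMSO (adjusted p = 6.17e-05) and -0.99 ± 0.19 between 3C and DMSO (adjusted p = 0.0044). The call between the cocktails was lost without 3C replicate 2 (adjusted p = 0.0596) and without 5C replicate 1 (adjusted p = 0.0513). Exons of Ppp1r1a on the other strand overlap 35.4% of its exon bases. The summed macrophage markers had the same order of groups, and their part in the fall of Pde1b was not tested.

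Pde1c was rare, at 1.5 and 1.05 CPM with DMSO and 0.217 to 0.272 CPM in the 4 cocktail libraries, which is close to the floor of 0.173 to 0.182 CPM. Against DMSO its log2 fold change was -2.48 in 5C (adjusted p = 0.0086) and -2.31 in 3C (adjusted p = 0.0132). The 5C call was lost without DMSO replicate 1 (adjusted p = 0.0651) and the 3C call without DMSO replicate 1 or either 3C library (adjusted p = 0.0703 to 0.0918). Pde1a and Pde10a were called in no comparison. Over the 16 enzymes able to hydrolyse cAMP, the summed FPKM was 52.8 and 43.7 with DMSO, 34.1 and 34.8 with 3C, and 40.3 and 41.5 with 5C. The sum was thus lowest with 3C, and all the cocktail libraries lay below the DMSO libraries.

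**Figure D2:**
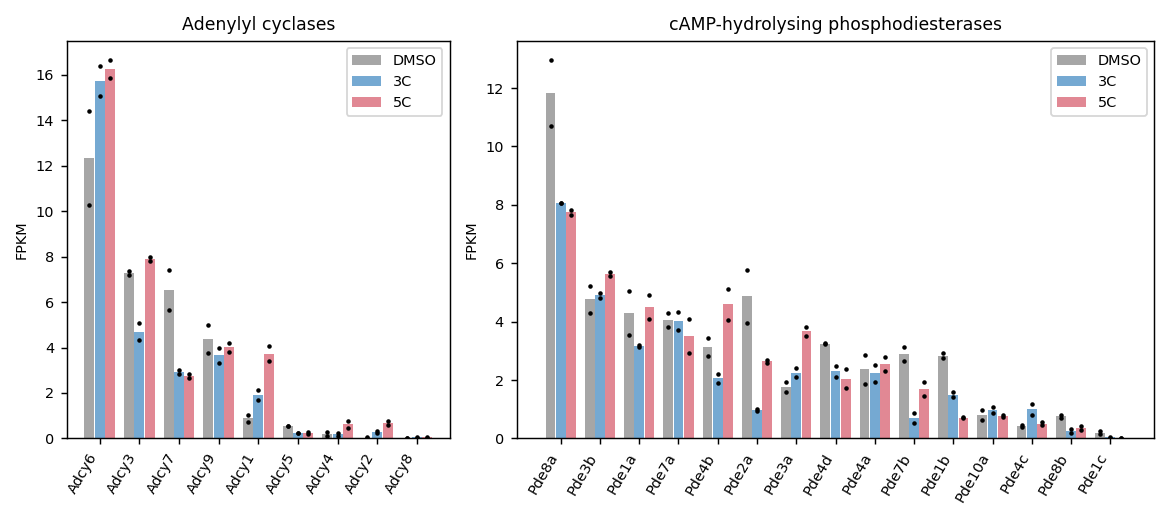
FPKM of the cyclases and of the cAMP-hydrolysing phosphodiesterases tested, ordered by their mean over all libraries; bars are means of 2 libraries and dots the libraries. Adcy6 and Pde8a are the most abundant of each kind, and Pde4b, Pde2a and Pde7b are lowest with 3C.

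The phosphodiesterase genes grouped here for cGMP (Pde5a, Pde6d and Pde9a) showed no call between the cocktails, where 12.7% of all genes were called. Pde9a stood at 1.01 and 0.895 CPM with DMSO, 1.69 and 2.21 with 3C, and 2.19 and 2.93 with 5C, a log2 rise of 1.44 ± 0.33 from DMSO to 5C (adjusted p = 0.0107) that was lost without 5C replicate 2 (adjusted p = 0.078). Pde5a was at 26.0 to 33.4 CPM and was called in no comparison. Pde6d, whose product carries prenylated proteins and is not an enzyme, was at 18.7 to 20.6 CPM in all 6 libraries.

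The PKA subunits differed little between 5C and 3C. None of the 4 regulatory and 2 catalytic genes was called there, where 12.7% of all genes were. With so few genes, a lack of calls is near that share. Their log2 fold changes ran from -0.01 to 0.15 for the regulatory genes, with interval ends from -0.44 to 0.61, and from -0.06 to 0.11 for the catalytic genes, with interval ends from -0.23 to 0.31. Prkar1a was the most abundant regulatory gene, with 83.4% of the summed regulatory FPKM with DMSO, 85.0% with 3C and 85.1% with 5C. It stood at 321 and 315 CPM with DMSO, 371 and 349 with 3C, and 363 and 359 with 5C. Its log2 rise of 0.20 ± 0.07 from DMSO to 5C (adjusted p = 0.0486) was lost with any 1 of the 6 libraries left out (adjusted p = 0.0843 to 0.145). Prkar2a, at 61.8 to 71.3 CPM, Prkar1b and Prkar2b were called in no comparison.

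The 2 catalytic genes moved apart against DMSO. Both were called in each cocktail (100%, beside 28.7% of all genes in 5C and 24.5% in 3C). Prkaca stood at 84.3 and 97.2 CPM with DMSO, 114 and 113 with 3C, and 125 and 110 with 5C. Prkacb stood at 134 and 146 CPM with DMSO, 114 and 115 with 3C, and 103 and 109 with 5C. Prkaca was higher than with DMSO by 0.39 ± 0.09 on the log2 scale in 5C (adjusted p = 0.0097) and by 0.29 ± 0.09 in 3C (adjusted p = 0.0465), while Prkacb was lower, with log2 fold changes of -0.38 ± 0.08 (adjusted p = 0.00455) and -0.32 ± 0.08 (adjusted p = 0.013). The 5C call of Prkacb held with each library left out. That of Prkaca was lost without 5C replicate 1 (adjusted p = 0.0764). The 3C call of Prkacb was lost without DMSO replicate 2 or either 3C library (adjusted p = 0.0609 to 0.111), and that of Prkaca without DMSO replicate 1, either 3C library or 5C replicate 1 (adjusted p = 0.053 to 0.206). Prkaca thereby made up a mean of 55.0% of the catalytic FPKM with DMSO, 65.2% with 3C and 67.7% with 5C. The summed catalytic FPKM was 63.5 and 68.0 with DMSO, 67.5 and 69.0 with 3C, and 72.4 and 65.6 with 5C, with overlapping groups. The ratio of regulatory to catalytic FPKM was 1.46 to 1.71 over the 6 libraries.

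The anchoring proteins tether PKA to places in the cell. Of the 10 tested, Akap5 was higher and Akap8 lower in 5C than in 3C (20% called, beside 12.7% of all genes). Akap5 (chr12:76371613-76382157), which holds PKA, calcineurin and protein kinase C at the plasma membrane, stood at 5.36 and 3.44 CPM with DMSO, 4.08 and 3.45 with 3C, and 11.1 and 9.49 with 5C. The 5C libraries stood above the other 4, which overlapped. Akap5 differed by 1.5 ± 0.24 on the log2 scale between 5C and 3C (2.84-fold, adjusted p = 0.00431) and 1.25 ± 0.24 between 5C and DMSO (adjusted p = 0.00399), calls that held with each library left out. Between 3C and DMSO it was -0.26, with an interval of -0.80 to 0.29. Akap8 (chr17:32522645-32540212), a nuclear anchor, stood at 65.0 and 53.7 CPM with DMSO, 61.7 and 61.2 with 3C, and 47.7 and 46.4 with 5C. This was a log2 fold change of -0.33 ± 0.09 between 5C and 3C (adjusted p = 0.0451) and -0.32 ± 0.09 between 5C and DMSO (adjusted p = 0.03). The first call was lost without any 1 of the 3C and 5C libraries (adjusted p = 0.149 to 0.211), and the second without any 1 of the 6 libraries except DMSO replicate 2 (adjusted p = 0.0611 to 0.156).

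Against DMSO, 2 anchoring genes were higher and 5 lower in 5C (70% called, beside 28.7% of all genes). In 3C, 1 was higher and 2 lower (30%, beside 24.5%). Akap12 (gravin, a scaffold for PKA and protein kinase C) stood at 115 and 117 CPM with DMSO, 95.5 and 103 with 3C, and 79.1 and 84.2 with 5C. The log2 fold change of -0.48 ± 0.07 between 5C and DMSO (adjusted p = 0.00112) held with each library left out. That of -0.25 ± 0.07 between 3C and DMSO (adjusted p = 0.0358) was lost without either DMSO or either 3C library (adjusted p = 0.0573 to 0.265). Akap7 stood at 25.0 and 26.1 CPM with DMSO, 19.0 and 22.9 with 3C, and 16.5 and 16.3 with 5C, a log2 fold change of -0.62 ± 0.12 between 5C and DMSO (adjusted p = 0.00416) that also held.

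The other anchoring calls were each lost with some single libraries left out. Akap13 stood at 208 and 174 CPM with DMSO, 162 and 159 with 3C, and 127 and 149 with 5C. Its log2 fold change of -0.44 between 5C and DMSO (adjusted p = 0.0116) was lost without DMSO replicate 1 (adjusted p = 0.0653) and without 5C replicate 1 (adjusted p = 0.0831). Akap10 stood at 38.2 and 33.2 CPM with DMSO, 27.3 and 27.8 with 3C, and 27.6 and 24.8 with 5C, with log2 fold changes against DMSO of -0.43 in 5C (adjusted p = 0.0122) and -0.40 in 3C (adjusted p = 0.0186). The 5C call was lost without DMSO replicate 1 (adjusted p = 0.0609) and 5C replicate 2 (adjusted p = 0.0764), and the 3C call without DMSO replicate 1 or either 3C library (adjusted p = 0.0879 to 0.128). Akap1, the mitochondrial anchor, rose from 41.3 and 47.2 CPM with DMSO to 58.9 and 58.2 with 3C and 54.7 and 51.1 with 5C. This was a log2 fold change of 0.37 in 3C (adjusted p = 0.0151) and 0.27 in 5C (adjusted p = 0.0482). The 3C call was lost without DMSO replicate 1 or either 3C library (adjusted p = 0.0712 to 0.0948), and the 5C call without any 1 library but DMSO replicate 2 (adjusted p = 0.091 to 0.215). The summed anchoring FPKM was 90.5 and 101 with DMSO, 86.7 and 90.3 with 3C, and 77.1 and 77.7 with 5C. Akap6, Akap9 and Akap11 were called in no comparison.

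None of the 6 genes of the CREB family and its coactivators was called between 5C and 3C, where 12.7% of all genes were. With so few genes, a lack of calls is near that share. Their log2 fold changes there ran from -0.20 to 0.26 with interval ends from -0.40 to 0.51. Creb1, the factor that PKA phosphorylates, stood at 43.9 and 41.8 CPM with DMSO, 38.6 and 36.7 with 3C, and 31.2 and 35.1 with 5C. A log2 fold change of -0.35 ± 0.10 between 5C and DMSO (adjusted p = 0.0231) was lost without DMSO replicate 1 (adjusted p = 0.0779) and without 5C replicate 1 (adjusted p = 0.135). Crtc2, the coactivator known for glucagon-driven gluconeogenesis in hepatocytes, was at 34.1 to 43.7 CPM and, at 12.6 to 16.9 FPKM, the most abundant of the group by its mean. Crem was at 10.2 to 12.3 CPM in all 6 libraries, and Crtc1, Crtc3 and Crebbp were called in no comparison either.

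The EPAC genes rose. Rapgef3 (EPAC1, chr15:97637887-97665853) stood at 23.6 and 20.5 CPM with DMSO, 23.1 and 23.2 with 3C, and 38.1 and 32.4 with 5C. The 5C libraries stood above the other 4. The log2 fold change was 0.66 ± 0.11 between 5C and 3C (adjusted p = 0.00553), 0.70 ± 0.11 between 5C and DMSO (adjusted p = 0.00145) and 0.04, with an interval of -0.21 to 0.29, between 3C and DMSO. The call between the cocktails was lost without 3C replicate 1 (adjusted p = 0.0577) and without 3C replicate 2 (adjusted p = 0.0555), and the call against DMSO held with each library left out. Exons of Gm33531 on the other strand overlap 22.1% of its exon bases. Rapgef4 (EPAC2) rose in both cocktails, from 3.83 and 3.46 CPM with DMSO to 13.0 and 11.3 with 3C and 12.8 and 17.7 with 5C. Against DMSO the log2 fold change was 2.09 ± 0.20 in 5C (4.25-fold, adjusted p = 5.64e-05) and 1.70 ± 0.19 in 3C (3.26-fold, adjusted p = 0.000231), and both held with each library left out. Between 5C and 3C it was 0.38, with an interval of -0.04 to 0.81. The summed EPAC FPKM was 6.05 and 7.21 with DMSO, 8.50 and 8.97 with 3C, and 12.3 and 12.9 with 5C.

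**Figure D3:**
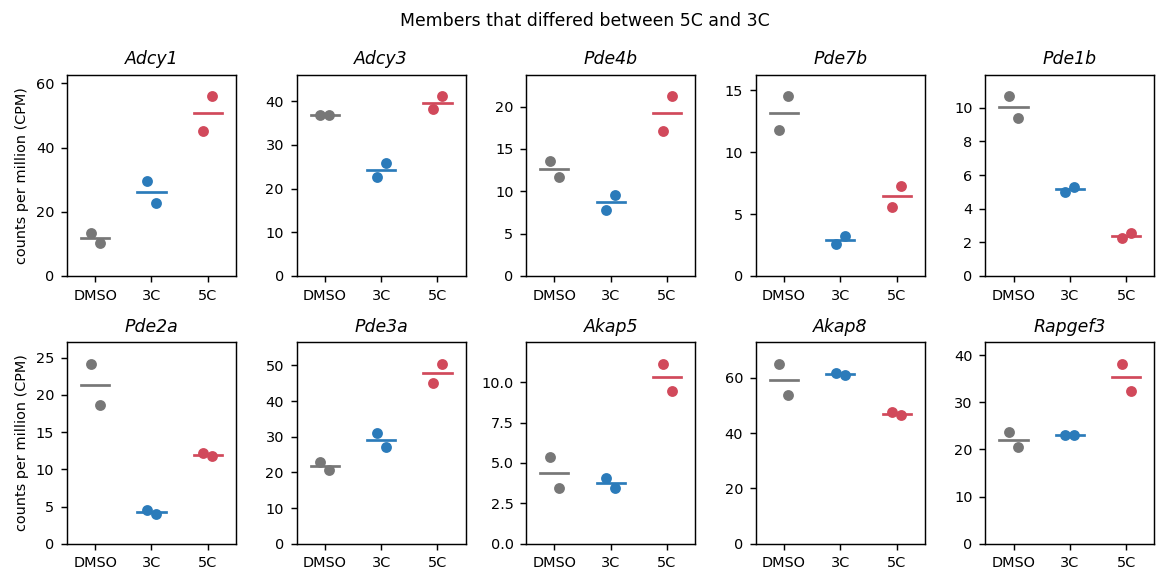
CPM in each library (points) with the group mean (line) for the 10 members called between 5C and 3C; each vertical axis starts at 0. Pde4b, Pde7b, Pde2a and Adcy3 are lowest with 3C, Adcy1 and Pde3a rise and Pde1b falls from DMSO through 3C to 5C, and Akap5 and Rapgef3 stand apart with 5C.

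**Figure D4:**
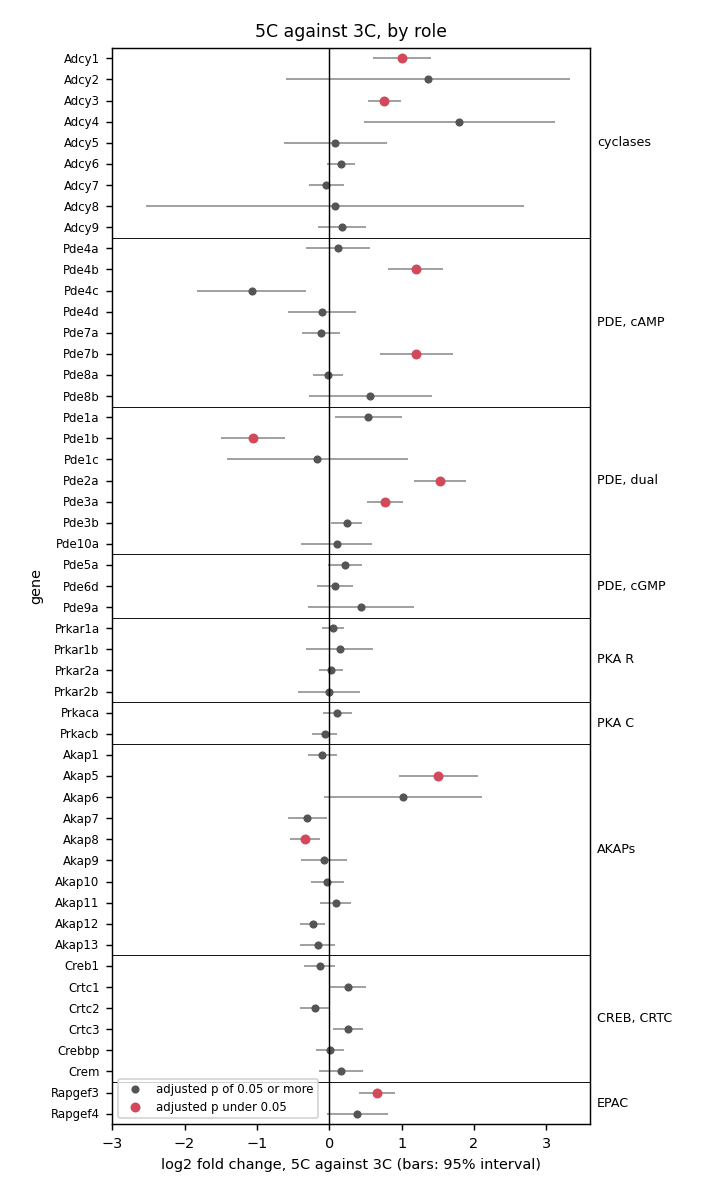
Log2 fold change of 5C against 3C for the 51 members tested, with 95% intervals, grouped by role; red points passed an adjusted p of 0.05. The red points lie among cyclases, phosphodiesterases, anchoring proteins and Rapgef3, and no PKA or CREB gene has a red point. Of all genes tested, 12.7% passed, so a lack of red points in a small role is near that share.

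CREB binds the cAMP response element, in full TGACGTCA or as the short site TGACG, so the promoters of the members were searched for both on both strands. The short site lies within the full one, so a promoter with the full site would count for both. RefSeq promoter windows of mouse build GRCm38.p6, from 250 bases before to 50 after the start of transcription, were matched for 48 of the 59 members. The full site was in 0 of the 48 and in 1.88% of all 27025 promoter windows, and the short site was in 9 of the 48 (18.8%) and in 21.0% of all windows. Of the 10 members called between 5C and 3C, 9 had a window (none was matched for Pde3a), and 2 of these, those of Pde4b and Rapgef3, held the short site. The window of Prkaca, which was not called between the cocktails, held it 2 times. The 120 bases around these sites are shown, each 5′ to 3′ on the strand of its gene, with the short site in capitals as TGACG or, where it lies on the other strand, as CGTCA.
Pde4b, chr4:102421435-102421554, plus strand: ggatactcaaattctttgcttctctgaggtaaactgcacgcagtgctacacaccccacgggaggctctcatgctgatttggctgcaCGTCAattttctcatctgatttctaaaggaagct
Rapgef3, chr15:97767797-97767916, minus strand: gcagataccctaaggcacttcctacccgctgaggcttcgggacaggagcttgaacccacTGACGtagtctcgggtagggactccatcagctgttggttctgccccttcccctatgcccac
Prkaca, chr8:83972858-83972977, plus strand: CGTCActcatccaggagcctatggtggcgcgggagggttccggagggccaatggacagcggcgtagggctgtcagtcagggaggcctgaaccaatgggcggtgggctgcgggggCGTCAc
The Pde4b site starts 34 bases and the Rapgef3 site 191 bases before the annotated start. Prkaca carries sites at 120 and 6 bases before its start. These are matches of letters in 1 window per gene.

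Other genes of the pathway surrounded these changes. Of 79 genes, listed with earlier results of these data known, 77 were in the table and 70 were tested. The shares called among them are therefore only a description. Between 5C and 3C, 12 were higher and 9 lower (30% called, beside 12.7% of all genes). Against DMSO, 20 were higher and 19 lower in 5C (55.7%, beside 28.7%), and 18 higher and 18 lower in 3C (51.4%, beside 24.5%). Among 18 Gs-coupled receptors tested, 3 were higher and 1 lower in 5C than in 3C (22.2%, beside 12.7%). Against DMSO 3 were higher in each cocktail, while 10 were lower in 5C (72.2% called in all, beside 28.7%) and 7 in 3C (55.6%, beside 24.5%). Gcgr, the glucagon receptor, stood at 1.33 and 0.334 CPM with DMSO, 5.13 and 4.16 with 3C, and 15.6 and 14.9 with 5C. It was higher than in DMSO by 4.22 ± 0.55 in 5C (adjusted p = 0.00172) and by 2.45 ± 0.52 in 3C (adjusted p = 0.0169), and the difference of 1.77 between the cocktails missed the threshold (adjusted p = 0.0656). Its 3C call was lost without 3C replicate 1 (adjusted p = 0.0828) and without 3C replicate 2 (adjusted p = 0.0584). Vipr2, a receptor of vasoactive intestinal peptide, fell from 15.8 and 15.5 CPM with DMSO to 2.36 and 2.71 with 3C and 2.85 and 3.05 with 5C (log2 fold change -2.66 and -2.39, adjusted p = 1.36e-05 and 1.48e-05). Glp1r had 13 and 31 counts with DMSO, 0 and 0 with 3C, and 19 and 18 with 5C, all near the floor of 12, and its calls (3C against DMSO and 5C against 3C) were lost with single libraries left out (adjusted p = 0.0575 to 0.128). Glp2r had 11 and 7 counts with DMSO, 16 and 16 with 3C, and 0 and 0 with 5C, and its call of 5C against DMSO was lost with any 1 library left out (adjusted p = 0.0691 to 0.13).

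Of the 3 PKA inhibitors, Pkia and Pkig rose and Pkib fell in both cocktails. Pkia went from 30.6 and 24.5 CPM with DMSO to 49.0 and 51.4 with 3C and 53.9 and 60.5 with 5C, by 1.08 ± 0.12 in 5C (adjusted p = 0.000131) and 0.84 ± 0.12 in 3C (adjusted p = 0.000727). Pkig went from 30.8 and 31.9 CPM to 44.7 and 46.7 with 3C and 47.5 and 45.3 with 5C, by 0.58 ± 0.08 in 5C (adjusted p = 0.000671) and 0.51 ± 0.08 in 3C (adjusted p = 0.00176). Pkib went from 10.7 and 11.0 CPM to 3.34 and 5.41 with 3C and 3.36 and 2.07 with 5C, with log2 fold changes of -1.99 ± 0.30 in 5C (adjusted p = 0.000964) and -1.34 ± 0.29 in 3C (adjusted p = 0.00849). The 3C call of Pkib was lost without 3C replicate 1 (adjusted p = 0.0677). Abcc4, a transporter that exports cAMP, was lower in 5C than in both other groups, at 139 and 88.7 CPM beside 314 and 340 with DMSO and 449 and 371 with 3C (log2 fold change -1.80 ± 0.22 against 3C and -1.51 ± 0.22 against DMSO, adjusted p = 0.00543 and 0.00393). Of the 8 cholangiocyte markers, 3 were lower and 0 higher in 5C than in 3C, while 6 were higher and 1 lower in 5C than in DMSO. Their part in the values of Abcc4 was not tested. Creb5 was likewise lower in 5C than in 3C (log2 fold change -1.08 ± 0.14, adjusted p = 0.00163), and Creb3l3, a hepatocyte member of the family, rose from 38.6 and 37.4 CPM with DMSO to between 120 and 127 in the 4 cocktail libraries (log2 fold change 1.73 ± 0.07 in 5C and 1.67 ± 0.07 in 3C, adjusted p = 4.02e-07 and 1.48e-06). Popdc2, of a family of membrane proteins that bind cAMP, fell from 9.31 and 9.01 CPM with DMSO to 3.01 and 2.05 with 3C and 4.40 and 3.80 with 5C (log2 fold change -1.89 ± 0.24 and -1.14 ± 0.23, adjusted p = 0.000398 and 0.00526). Gnaz, a G protein alpha subunit of the inhibitory class, was higher in both cocktails at low levels, with 0.372 and 0.228 CPM in DMSO beside 1.03 and 1.98 in 3C and 0.912 and 1.70 in 5C. Its calls (adjusted p = 0.0143 and 0.017) were lost without DMSO replicate 2 and without replicate 2 of the cocktail concerned (adjusted p = 0.0721 to 0.121).

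The list of cAMP response genes was also drawn up with earlier results of these data known, so its shares only describe it. Among 21 known cAMP response genes tested, 7 were higher and 5 lower in 5C than in 3C (57.1% called, beside 12.7% of all genes). Against DMSO, 10 were higher and 3 lower in 5C (61.9%, beside 28.7%), and 9 higher and 6 lower in 3C (71.4%, beside 24.5%). Pck1, which commits carbon to gluconeogenesis, stood at 3.35 and 1.43 CPM with DMSO, 24.4 and 27.9 with 3C, and 92.9 and 143 with 5C. On the log2 scale Pck1 changed by 2.23 ± 0.40 between 5C and 3C (adjusted p = 0.0372), 5.65 ± 0.49 between 5C and DMSO (adjusted p = 0.00184) and 3.42 ± 0.46 between 3C and DMSO (adjusted p = 0.0089). The first was lost without either 3C library or 5C replicate 2 (adjusted p = 0.0914 to 0.23), and the last without 3C replicate 1 (adjusted p = 0.0514) or 3C replicate 2 (adjusted p = 0.0523). G6pc, the enzyme that releases free glucose, stood at 2.43 and 2.00 CPM with DMSO, 12.6 and 11.2 with 3C, and 18.0 and 23.9 with 5C, a log2 rise of 0.87 ± 0.18 from 3C to 5C (adjusted p = 0.0121) that was lost without either 3C library or 5C replicate 2 (adjusted p = 0.0643 to 0.113). Sds stood at 0.342 and 0.622 CPM with DMSO, 6.25 and 5.53 with 3C, and 9.18 and 10.9 with 5C, and its difference of 0.83 between the cocktails missed the threshold (adjusted p = 0.0727). Dio1 had no count with DMSO and was at least 4.85-fold higher in 5C and at least 1.99-fold higher in 3C, on group means against the floor. The other 5 genes higher in 5C than in 3C were Fos, Fosb, Nr4a1, Nr4a3 and Btg2, all named after their values were seen. The call of Fos held with each library left out, while those of Fosb, Nr4a1, Nr4a3 and Btg2 were lost without some single libraries (adjusted p = 0.0501 to 0.321). The 5 genes lower in 5C than in 3C, also named after their values were seen, were Areg, Sik1, Igfbp1, Dusp1 and Cited2, so the list did not move one way. The calls of Areg and Sik1 held with each library left out, while those of Igfbp1, Dusp1 and Cited2 were lost without some single libraries (adjusted p = 0.0537 to 0.263). Of the 12 hepatocyte markers, 11 were also higher than with DMSO in each cocktail, and Arg1 was lower in each. Between 5C and 3C, 1 marker was higher in 5C (Ttr) and 2 were lower (Arg1 and Hnf4a). The part of the hepatocyte markers in the rises of Pck1, G6pc and Sds was not tested. Tat stands on both lists.

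**Figure D5:**
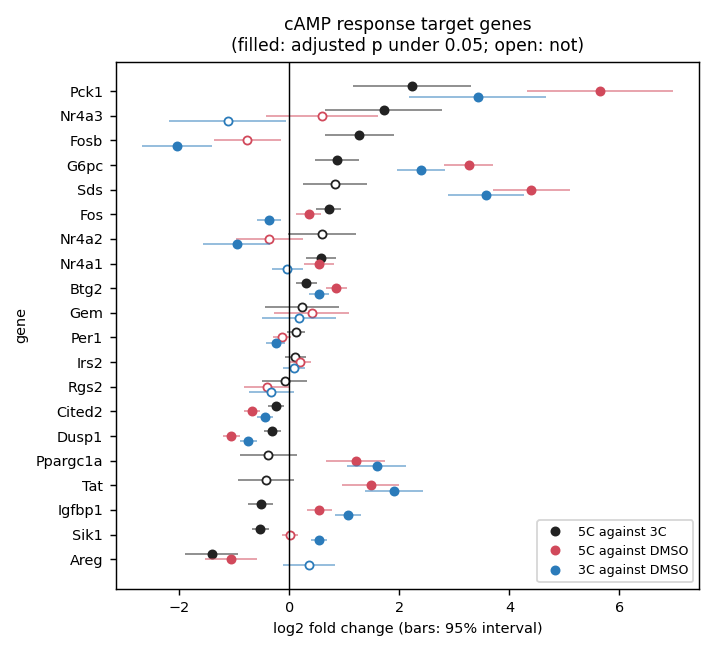
Log2 fold changes with 95% intervals of 20 cAMP response genes in the 3 comparisons; filled points passed an adjusted p of 0.05. Dio1 is left out because it had no count with DMSO. Pck1, G6pc and Sds lie far to the right in both comparisons with DMSO, and the points of 5C against 3C lie on both sides of 0.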

How the data were processed

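RNA was measured by RNA-seq in 6 libraries, 2 for each of DMSO, 3C and 5C, grouped by their GEO labels. Per the labels, libraries were made with a NEBNext Ultra kit, which does not mark strand. The submitters' processing notes name featureCounts, Subread, DESeq2 and GRCm39. The aligner, annotation release and strand setting are not given in the sources used here. The authors deposited a table of estimated counts (whole numbers, not normalized) for 52323 genes and a table of FPKM, scaled by the authors for gene length and library total. The deposited tables hold no fold changes or p-values. Counts of 4 and 8 are more frequent than their neighbours, so 1 fragment was assumed to give 4 units, and the floor of 3 fragments is 12 counts; floors and bounds rest on this and cover counting error only.

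The main test was edgeR 4.0.16 (R 4.3.3) with TMM, filterByExpr and robust glmQLFit on all 6 libraries, with a coefficient per group (19135 genes, 3 residual degrees of freedom, common biological coefficient of variation 18.4%). Standard errors were derived from the F statistics. In 2 simulations of 5C against 3C over 19135 genes it recovered 186 to 189 of 200 genes changed by a log2 fold change of 2, with 20 to 21 false calls. Alternatives used limma 3.58.1 and DESeq2 1.42.0, other normalizations and filters, FPKM with pseudocounts of 1 and 0.1, and each library left out. Summing Pde2a with Gm45837 was added after seeing the data. Replicates of a group differed by more than counting noise and were kept as 2 samples. Positions are from GENCODE on GRCm39; figures were drawn with matplotlib 3.10.9.

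The members and gene lists were chosen with earlier results of these data known. Members called in any comparison could be named with values, uncalled ones are given by role with the most abundant named, and other pathway genes are named where called with an absolute log2 fold change above 1, at most 4 per list.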

Additional observations from a re-analysis of the deposited data

How the results depend on the processing

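No called member changed direction under any alternative. With 1 library left out, the members called ranged from 6 to 12 between 5C and 3C (6 without 3C replicate 2), from 18 to 24 between 5C and DMSO (18 without 5C replicate 1) and from 8 to 19 between 3C and DMSO (8 without 3C replicate 1, 10 without 3C replicate 2). Those higher ranged from 6 to 10, 7 to 12 and 2 to 6, those lower from 0 to 2, 8 to 13 and 6 to 14, and the other pathway genes called from 8 to 23, 32 to 37 and 25 to 33, in the same order of comparisons. The median log2 fold change of the members ranged from 0.06 to 0.16, from -0.14 to 0.09 and from -0.24 to -0.070 (without DMSO replicate 1). Such a fit leaves 1 group with a single library, which is assumed to vary like the others. Over all genes, calls between 5C and 3C numbered 2423 and ranged from 991 to 2798 with 1 library left out (lowest without 3C replicate 1), and those between 3C and DMSO numbered 4689 and were 2916 and 2970 without either 3C library. DESeq2 called 4 members lower between 5C and 3C. Limma called 1 lower there and 13 other pathway genes with either pseudocount, and with 0.1 it called 18 members, 8 of them higher, between 5C and DMSO. With pseudocounts of 1 and 0.1, limma kept 8 and 7 of the 10 member calls between 5C and 3C (Akap8 and Pde3a lost with both, Adcy1 with 0.1), 21 and 18 of 28 between 5C and DMSO (Adcy6, Akap1, Akap8, Akap10, Pde4b and Prkar1a lost with both, Pde1c with 1, and Adcy4, Adcy5, Pde4d and Pde7b with 0.1), and 13 and 11 of 19 between 3C and DMSO (Akap10, Akap12, Pde1c, Pde3a, Pde4b and Prkaca lost with both, Adcy5 and Pde4c with 0.1). With a log2 fold change above 1 also required, members called were 6 (5 higher, 1 lower), 12 (7 and 5) and 9 (3 and 6), and other pathway genes 9, 25 and 19. The causes were not tested, apart from the stricter rule, which by construction calls fewer genes.

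The replicate block kept 9 of 10, 25 of 28 and 18 of 19 member calls and left 1 member lower between 5C and 3C, since Akap8 was lost. It also lost Adcy4, Akap1 and Prkar1a in 5C and Prkaca in 3C against DMSO. Same-numbered libraries shared only a number (correlation of deviations -0.03, 0.00 and 0.02), so this fit is no measure of pairing.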

Other observations

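Some members differed between the deposited tables. The log2 ratio of 3C to DMSO for Creb1, on group means, was -0.68 by FPKM and -0.19 by CPM, and limma on log2(FPKM + 1) called it where the counts did not. For Pde10a the same ratio was 0.25 by FPKM and -0.25 by CPM, and neither table gave a call. The cause was not tested.

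The ratio of summed cyclase FPKM to summed FPKM of the cAMP-hydrolysing phosphodiesterases was 0.684 and 0.647 with DMSO, 0.872 and 0.851 with 3C, and 0.861 and 0.908 with 5C. The cocktail libraries lay above the DMSO libraries and overlapped with each other. It is a ratio of RNA levels and says nothing of enzyme activity.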
